A study of Arabidopsis thaliana with 28 samples.

Results

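The genes described here are 8 Arabidopsis thaliana loci that had a higher array signal on hydrogen peroxide (H2O2) in root tips: AT4G01870, AT3G44190, AT3G26470, AT5G64250, AT2G41380, AT5G14730, AT5G61820 and AT2G46600. They are 8 of 13286 loci that the platform annotation paired with a probe set alone, and each had 1 probe set. They were chosen by a higher signal on H2O2 than on control medium in one or both root zones, so all comparisons of H2O2 with control medium below are descriptions. The rule set no numeric limit. In all, 43 loci with a probe set of their own were called higher on H2O2 for the mean over the times in at least one zone, and the 8 genes are among them.

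The series asked how genes of dividing and of elongating root cells respond to H2O2. All plants were wild type of the ecotype Columbia-0, and the labels give their age as 5 days after germination but as 5 days after imbibition in the treatment protocol. Seedlings grown on Murashige-Skoog (MS) medium went to control MS medium or to MS medium with 1 mM H2O2, and the root tip was then cut with a razor blade into the meristematic zone, where cells divide, and the elongation zone, where they lengthen. There were 14 groups of 2 biological replicates, 30 pooled roots per replicate: control at 0, 1, 3 and 6 h and H2O2 at 1, 3 and 6 h, in each zone. Whether both zones of a replicate came from the same roots is not stated. Each group is a mixture of all cell types of a hand-cut section, read on a 2-cycle amplified Affymetrix ATH1 array.

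Hydrogen peroxide is both a by-product of metabolism and a signal in plant cells. It oxidises proteins and lipids, and cells answer with antioxidant enzymes and with detoxification enzymes that modify or conjugate reactive compounds. In the root tip, the balance of H2O2 and superoxide is known to mark the change from division to elongation. The families named for the 8 genes differ. AT3G44190 codes for an enzyme of the FAD/NAD(P)-binding oxidoreductases, AT5G64250 for an aldolase-type TIM barrel protein, and AT2G41380 for a methyltransferase of the S-adenosylmethionine-dependent type. AT3G26470 codes for a protein with an RPW8 domain, a domain known from powdery mildew resistance, and AT2G46600 for a calcium-binding protein with an EF-hand. AT4G01870 is related to bacterial tolB, and AT5G61820 is related to the nodulin Nod19. No role is given here for AT5G14730.

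Arrays were alike within groups, with correlations of replicates between 0.9649 and 0.9867 across 22746 probe sets. Signals under 16 made up 24.5% to 31.1% of each array. Zones lay apart on the first principal component (75.6% of the variance). On the second component (4.35%) the 1 h control arrays numbered 1 lay at -2.39 (meristematic zone) and 6.86 (elongation zone), while the other 6 arrays of 1 h lay between -39.4 and -24.8. The 1 h values that move most without those arrays are given below in both forms. The labelled zones matched their markers in control roots, where measured means that a gene had a probe set paired with it alone. The 4 measured of 8 meristem markers (AUR1, AUR2, AUR3 and BBM) were lower in the elongation zone, and the 5 measured of 6 markers of elongation and root hairs (UPB1, XTH21, EXPB1, EXPA7 and EXPA18) were higher. None of the 3 root cap markers was measured.

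Among the 3 genes of enzyme families, AT3G44190 was read well above its control level at every time on H2O2, in both zones. The control signals of AT3G44190 in the meristematic zone were 600.2 and 546 at 0 h, 684 and 759.8 at 1 h, 679 and 909 at 3 h, and 499 and 617 at 6 h. On H2O2, AT3G44190 gave 1271 and 1486 at 1 h, 2647 and 2363 at 3 h, and 1995 and 1925 at 6 h there. Every H2O2 array of the meristematic zone was above every control array of that zone. In elongating sections AT3G44190 had control signals of 1784 and 2008 at 0 h, 2003 and 3107 at 1 h, 2045 and 2802 at 3 h, and 1903 and 3141 at 6 h, and H2O2 signals of 4904 and 6016 at 1 h, 5771 and 5636 at 3 h, and 4732 and 6183 at 6 h. Here too all H2O2 arrays lay above all control arrays, and H2O2 signals of the meristematic zone at 3 h overlapped the control signals of the elongation zone. On the log2(signal + 16) scale, the difference between H2O2 and control medium of AT3G44190 was 0.92 ± 0.23, 1.65 ± 0.23 and 1.79 ± 0.23 (SE) at 1, 3 and 6 h in the meristematic zone. The matching differences were 1.12 ± 0.23, 1.25 ± 0.23 and 1.14 ± 0.23 in the elongation zone, where the 3 times lay within 1 SE of each other. In bulk sections, a change in the number of cells of a type and a change of RNA per cell cannot be told apart, here or for the other genes.

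AT5G64250 was higher on H2O2 at every time in both zones. The control signals of AT5G64250 in the meristematic zone were 290.2 and 293 at 0 h, 254 and 336 at 1 h, 198 and 378 at 3 h, and 266 and 303 at 6 h. On H2O2, AT5G64250 gave 391 and 554 at 1 h, 707 and 830.1 at 3 h, and 443 and 672 at 6 h. The groups did not overlap in that zone, although H2O2 replicate 1 of 1 h was close to control replicate 2 of 3 h. In elongating sections AT5G64250 had control signals of 374 and 297 at 0 h, 337 and 427 at 1 h, 269 and 389 at 3 h, and 247 and 435 at 6 h, and H2O2 signals of 948 and 1155 at 1 h, 929 and 1172 at 3 h, and 527 and 1022 at 6 h. All 6 H2O2 arrays were above all control arrays, the nearest being replicate 1 of 6 h. Its log2 differences at 1, 3 and 6 h were 0.64 ± 0.32, 1.43 ± 0.32 and 0.91 ± 0.32 in the meristematic zone and 1.43 ± 0.32, 1.64 ± 0.32 and 1.12 ± 0.32 in the elongation zone, with the highest value at 3 h in both.

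AT2G41380 was dim on control medium, and each H2O2 array was above the controls of 1, 3 and 6 h of its zone. The control signals of AT2G41380 in the meristematic zone were 4.82 and 22.9 at 0 h, 8.58 and 7.42 at 1 h, 1.9 and 12.7 at 3 h, and 5.23 and 7.62 at 6 h. On H2O2, AT2G41380 gave 29.5 and 22 at 1 h, 35.7 and 20.1 at 3 h, and 47.6 and 43 at 6 h. In all, 12 of its 28 arrays were under 16, all of them on control medium. In elongating sections AT2G41380 had control signals of 36.3 and 17.2 at 0 h, 2.57 and 17.8 at 1 h, 1.07 and 15.4 at 3 h, and 10.8 and 11.5 at 6 h, and H2O2 signals of 57.6 and 26.8 at 1 h, 118 and 53.2 at 3 h, and 118 and 71.9 at 6 h. One 0 h control array of each zone reached into the range of the H2O2 arrays of that zone, so the separation holds against the controls of 1, 3 and 6 h and not against 0 h. The log2 differences were 0.79 ± 0.41, 0.93 ± 0.41 and 1.45 ± 0.41 in the meristematic zone and 1.16 ± 0.41, 2.06 ± 0.41 and 2.0 ± 0.41 in the elongation zone, and because of the added 16 they understate the change of so dim a gene. With 4 added in place of 16, the mean over the times was 1.73 in the meristematic zone and 2.54 in the elongation zone, and with 64 it was 0.44 and 0.87, beside 1.06 ± 0.23 and 1.74 ± 0.23. Against the 0 h controls the log2 difference of the 1 h H2O2 arrays was 0.55 ± 0.41 and 0.43 ± 0.41.

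**Figure D1:**
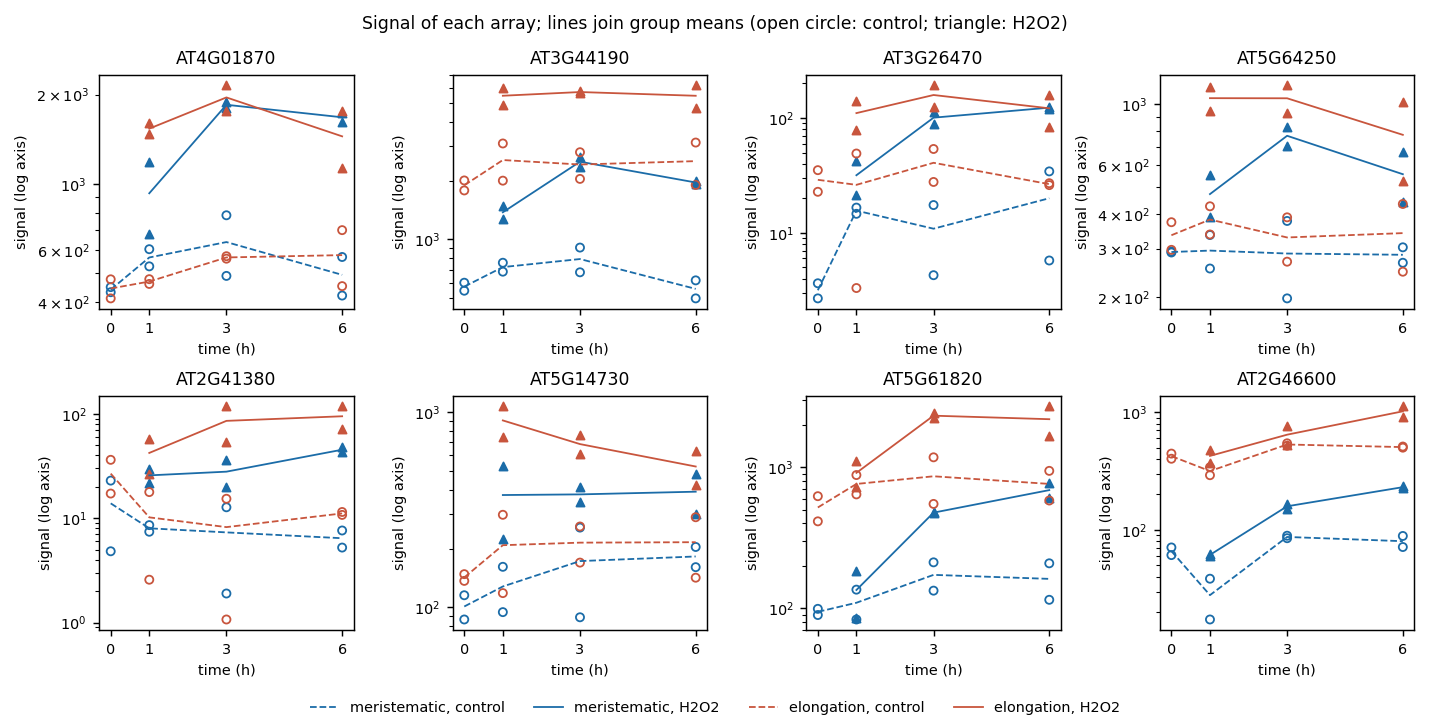
Signal of each array (log axis) against time in h for the 8 genes, in blue for the meristematic and red for the elongation zone. Open circles with dashed lines are control medium, triangles with solid lines are H2O2, and lines join the means of 2 arrays. AT3G44190, AT5G61820 and AT2G46600 have separate bands for the zones on control medium, whereas the control arrays of AT4G01870 overlap.

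Of the genes from immunity and calcium signalling families, AT3G26470 was barely read in control meristems. Control signals of AT3G26470 in the meristematic zone were 3.64 and 2.69 at 0 h, 16.6 and 14.7 at 1 h, 4.28 and 17.5 at 3 h, and 5.75 and 34.3 at 6 h. On H2O2, AT3G26470 gave 21.4 and 42.2 at 1 h, 88.3 and 113 at 3 h, and 126 and 120.4 at 6 h. The H2O2 arrays of 3 and 6 h were above every control array, while those of 1 h overlapped control replicate 2 of 6 h. In elongating sections AT3G26470 had control signals of 35.2 and 22.8 at 0 h, 3.31 and 49.1 at 1 h, 27.8 and 53.8 at 3 h, and 26.1 and 27.1 at 6 h, and H2O2 signals of 79.1 and 142 at 1 h, 124 and 193 at 3 h, and 84.1 and 159 at 6 h. No H2O2 array overlapped a control array in the elongation zone. The log2 differences of AT3G26470 were 0.56 ± 0.47, 2.16 ± 0.47 and 2.07 ± 0.47 in the meristematic zone and 1.79 ± 0.47, 1.63 ± 0.47 and 1.64 ± 0.47 in the elongation zone, with the widest errors of the 8 genes. Of its 28 arrays, 6 were under 16. With 64 added in place of 16, its mean over the times was 0.86 and 1.02, beside 1.60 ± 0.27 and 1.69 ± 0.27.

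The EF-hand gene AT2G46600 had a dip in its control signal at 1 h. Its control signals in the meristematic zone were 71.1 and 61.2 at 0 h, 17.4 and 38.6 at 1 h, 85.1 and 89.4 at 3 h, and 71.6 and 88.9 at 6 h, with the lowest values at 1 h. On H2O2, AT2G46600 gave 60.5 and 62.4 at 1 h, 166 and 152 at 3 h, and 227 and 235 at 6 h. At 1 h the H2O2 arrays were above the 1 h controls but at the level of the 0 h controls, with a log2 difference from 0 h of -0.08 ± 0.20. In elongating sections AT2G46600 had control signals of 445 and 402 at 0 h, 292 and 340.5 at 1 h, 544 and 519 at 3 h, and 499.6 and 511 at 6 h, and H2O2 signals of 478 and 373 at 1 h, 759.6 and 528 at 3 h, and 1121 and 912 at 6 h. At 3 h these groups overlapped, at 6 h they did not, and at 1 h the H2O2 arrays were again close to those of 0 h (-0.00 ± 0.20). The log2 differences from the control of the same time were 0.86 ± 0.20, 0.76 ± 0.20 and 1.36 ± 0.20 in the meristematic zone and 0.40 ± 0.20, 0.25 ± 0.20 and 0.98 ± 0.20 in the elongation zone, so the highest values came at 6 h. Against 0 h, the 6 h values were 1.59 ± 0.20 and 1.23 ± 0.20.

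Among the remaining genes, AT4G01870 had signal ranges over all times that overlapped between the 2 zones, on control medium and likewise on H2O2. At 1 h the zones were apart. There the meristematic arrays were the higher ones on control medium and the elongation arrays on H2O2. Control signals of AT4G01870 in the meristematic zone were 449 and 432 at 0 h, 527 and 603 at 1 h, 489.7 and 784 at 3 h, and 420.4 and 567 at 6 h. On H2O2, AT4G01870 gave 676 and 1184 at 1 h, 1805 and 1890.4 at 3 h, and 1735 and 1618 at 6 h. The 1 h replicates were far apart, and replicate 1 lay below the higher control array of 3 h, while all arrays of 3 and 6 h were above every control. In elongating sections AT4G01870 had control signals of 411 and 477 at 0 h, 460.1 and 477 at 1 h, 559.8 and 571 at 3 h, and 452 and 699 at 6 h, and H2O2 signals of 1601 and 1469.5 at 1 h, 1761 and 2151 at 3 h, and 1130.2 and 1762 at 6 h. All H2O2 arrays of that zone were above all control arrays, already at 1 h. Its log2 differences were 0.65 ± 0.25, 1.55 ± 0.25 and 1.75 ± 0.25 in the meristematic zone and 1.68 ± 0.25, 1.76 ± 0.25 and 1.30 ± 0.25 in the elongation zone.

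AT5G61820 was the gene with the least difference at 1 h. Control signals of AT5G61820 in the meristematic zone were 89.5 and 99 at 0 h, 83.2 and 135 at 1 h, 133 and 212 at 3 h, and 115 and 208 at 6 h. On H2O2, AT5G61820 gave 85.6 and 184 at 1 h, 480.2 and 474 at 3 h, and 604 and 776 at 6 h, so that media overlapped at 1 h and were apart at 3 and 6 h. In elongating sections AT5G61820 had control signals of 414 and 625 at 0 h, 643 and 883 at 1 h, 550.5 and 1179.7 at 3 h, and 582 and 945 at 6 h, and H2O2 signals of 724 and 1106 at 1 h, 2420.1 and 2241 at 3 h, and 1683 and 2718 at 6 h. There the media overlapped at 1 h and were apart at 3 and 6 h as well. The log2 differences were 0.22 ± 0.38, 1.42 ± 0.38 and 2.03 ± 0.38 in the meristematic zone and 0.24 ± 0.38, 1.51 ± 0.38 and 1.51 ± 0.38 in the elongation zone.

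AT5G14730 had its highest difference at 1 h in both zones, an order that rests on the 1 h control arrays numbered 1. Control signals of AT5G14730 in the meristematic zone were 115 and 86.7 at 0 h, 94.5 and 161 at 1 h, 89 and 256 at 3 h, and 161 and 204 at 6 h. On H2O2, AT5G14730 gave 225 and 527 at 1 h, 346 and 412 at 3 h, and 302 and 481 at 6 h. The media were apart at each time, although H2O2 replicate 1 of 1 h lay below control replicate 2 of 3 h. In elongating sections AT5G14730 had control signals of 137 and 148 at 0 h, 118 and 298 at 1 h, 169.5 and 259.5 at 3 h, and 142 and 289 at 6 h, and H2O2 signals of 742 and 1072 at 1 h, 607 and 765 at 3 h, and 422 and 631 at 6 h, with no overlap of the media. The log2 differences were 1.37 ± 0.46, 1.22 ± 0.46 and 1.01 ± 0.46 in the meristematic zone and 2.14 ± 0.46, 1.63 ± 0.46 and 1.28 ± 0.46 in the elongation zone. A change between times has a wider SE (0.65 for 6 h minus 1 h), and that SE exceeded the drop between neighbouring times in both zones. Without those control arrays the 1 h values were 1.03 ± 0.51 and 1.53 ± 0.51, and the highest difference was at 3 h in both zones.

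Because the genes were picked for a higher signal on H2O2, H2O2 groups near the top of their orders and control groups near the bottom follow in part from the choice. No share of all probe sets is given for these orders, which are a description only. Ordering the 14 group means of each gene put an H2O2 group of the elongation zone first for all 8 genes. It was the 3 h group for AT4G01870, AT3G44190, AT3G26470 and AT5G61820, the 1 h group for AT5G64250 and AT5G14730, and the 6 h group for AT2G41380 and AT2G46600. A control group of the meristematic zone was last for each, and for the 6 genes whose lowest mean was over 16 the highest mean was between 3.69 times (AT5G64250) and 36.3 times (AT2G46600) the lowest. The lowest group of AT2G46600 was the 1 h control, whose replicate 1 (17.4, beside 38.6) was one of the arrays that lay apart. No ratio is given for AT3G26470 and AT2G41380, whose lowest means were under 16. Most neighbours in these orders overlapped in their arrays. Overlaps were found in 13 of 13 neighbouring pairs for AT5G14730, in 12 for AT5G64250 and AT2G41380, and in 11 for AT4G01870, AT3G26470 and AT5G61820. AT3G44190 had 8 and AT2G46600 only 4 such overlaps. For AT2G46600 all 7 groups of the elongation zone, H2O2 or not, stood above all 7 of the meristematic zone, and AT3G44190 had the meristematic H2O2 groups of 3 and 6 h within the range of the elongation control groups.

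The comparison of zones in control roots was not part of how the genes were picked, although its 1, 3 and 6 h arrays were the controls of the H2O2 comparisons. It is tested here with limma (adjusted p over all 22746 probe sets, called under 0.05). Averaged over 0, 1, 3 and 6 h, 4 of the 8 genes were higher in the elongation zone and none was lower, where 26% of all probe sets were called higher and 32.3% lower. AT2G46600 was higher by 2.56 ± 0.10 on the log2 scale (SE, adjusted p = 2.51e-14), with control signals of 65.4 ± 25.7 in the meristematic zone and 444 ± 91.6 in the elongation zone (SD, n = 8 each). AT5G61820 was higher by 2.30 ± 0.19 (adjusted p = 1.27e-09), with signals of 134 ± 50.4 and 728 ± 252. AT3G44190 was higher by 1.79 ± 0.11 (adjusted p = 2.17e-11), with signals of 662 ± 129 and 2349 ± 567. All 8 control arrays of the elongation zone were above all 8 of the meristematic zone for these 3 genes, as they were for 13.9% of probe sets. AT3G26470 was higher by 0.71 ± 0.24 (adjusted p = 0.0133), with dim and overlapping signals of 12.4 ± 10.8 and 30.6 ± 15.8. Without the 1 h control arrays numbered 2 it was not called (0.48 ± 0.22, adjusted p = 0.0747), and then only the arrays numbered 1, which lay apart, stood for 1 h.

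The other 4 genes were not called between the zones in control roots. AT5G14730 had a log2 difference of 0.39 ± 0.23 (95% interval -0.09 to 0.87). It was called without elongation control replicate 1 of 1 h (0.55 ± 0.22, adjusted p = 0.0427 by limma), without meristematic control replicate 2 of 3 h (0.57 ± 0.22, adjusted p = 0.0342), and after quantile normalisation (0.57 ± 0.23, adjusted p = 0.0353). AT5G64250 had one of 0.24 ± 0.16 (-0.09 to 0.58), and AT2G41380 one of 0.23 ± 0.20 (-0.19 to 0.65). AT4G01870 was at -0.05 ± 0.13 (-0.31 to 0.22). With each array shifted to a common median, the overall median shifted from -0.02 to 0.26, and the probe sets called went from 5910 higher and 7349 lower to 10595 higher and 5559 lower. Then 7 of the 8 genes were called higher, and AT4G01870 turned to 0.23 without being called. Centring moves all probe sets of an array by the same amount, so the place of AT4G01870 relative to the overall median could hardly change. The comparison therefore does not tell which scaling is right. The ratio of 3' to 5' signals of the GAPDH control, which reads RNA quality, had means of 0.434 ± 0.184 in the meristematic zone and 0.0338 ± 0.22 in the elongation zone (log2, SD, n = 8 each), and its part in these differences was not tested.

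At 0 h, on arrays that were not the same-time control of any H2O2 group, the same 4 genes were called higher in the elongation zone, where 17.8% of probe sets were called higher and 23% lower. The log2 differences were 2.42 ± 0.20 for AT2G46600 (adjusted p = 1.73e-08) and 2.25 ± 0.38 for AT5G61820 (adjusted p = 8.04e-05). AT3G44190 differed by 1.70 ± 0.23 (adjusted p = 5.81e-06). AT3G26470 differed by 1.22 ± 0.47 (adjusted p = 0.0443), and that call was lost on leaving out any 1 of the 4 arrays (adjusted p of 0.0719 to 0.202). Its size depended on the pseudocount, with 2.18 for 4 and 0.47 for 64 at 0 h, and 1.13 and 0.30 beside 0.71 for the mean over the control times. AT4G01870 was at 0.01 ± 0.25. With arrays on a common median, the split of all probe sets called at 0 h went from 4039 higher and 5228 lower to 5582 higher and 4004 lower.

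On H2O2, the zones were set side by side after the values were seen, and since these H2O2 arrays were used to choose the genes the differences are a description with no test. Over 1, 3 and 6 h all 8 genes had a positive log2 difference of the elongation over the meristematic zone, beside a median of -0.07 for all probe sets. Differences between the zones on H2O2 were common, with 12842 of 22746 probe sets called by limma in either direction. AT5G61820 differed by 2.18 ± 0.22, AT2G46600 by 2.15 ± 0.12 and AT3G44190 by 1.54 ± 0.13. AT5G14730 (0.86 ± 0.27), AT2G41380 (0.80 ± 0.23), AT5G64250 (0.67 ± 0.19) and AT3G26470 (0.63 ± 0.27) had smaller differences, and AT4G01870 (0.20 ± 0.15) the smallest. Whether the zones responded differently is a separate comparison, given below.

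**Figure D2:**
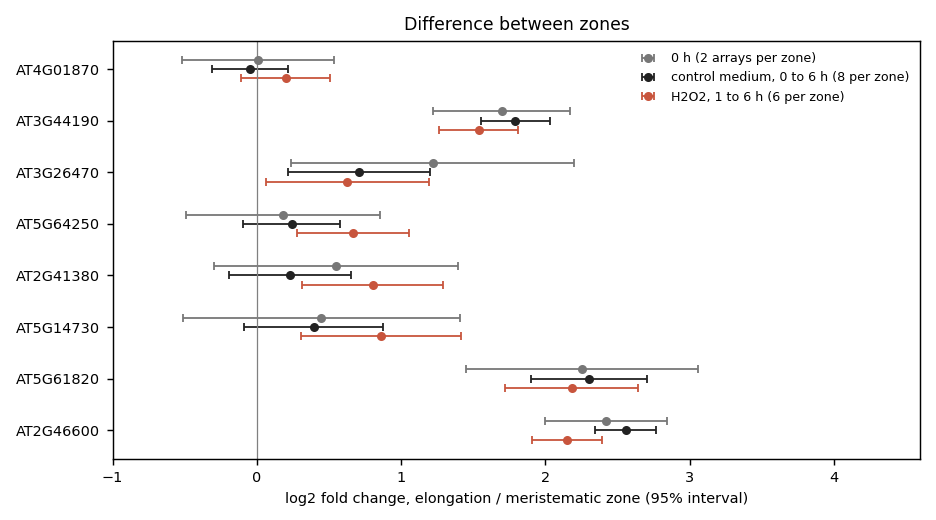
Log2 fold change of the elongation over the meristematic zone for each gene, with 95% intervals, at 0 h (2 arrays per zone), on control medium from 0 to 6 h (8 per zone) and on H2O2 from 1 to 6 h (6 per zone). AT3G44190, AT5G61820 and AT2G46600 lie above 1 in all 3 comparisons, and AT4G01870 lies near 0.

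Time on control medium was tested within each zone. An F test over 0, 1, 3 and 6 h called 1 of the 8 genes in the meristematic zone, where 0.365% of probe sets were called, and none in the elongation zone, where 0.422% were. These control arrays, other than those of 0 h, also entered the choice of the genes. The gene called was AT2G46600 (limma adjusted p = 0.0169), whose log2 difference from 0 h was -0.94 ± 0.20 at 1 h, 0.33 ± 0.20 at 3 h and 0.23 ± 0.20 at 6 h. In the elongation zone these values were -0.41 ± 0.20, 0.32 ± 0.20 and 0.25 ± 0.20 (F test adjusted p = 0.196, unadjusted p = 0.00843 from limma). The call in the meristematic zone was lost without control replicate 1 of 1 h, which read 17.4 against 38.6 in replicate 2 and was one of the arrays that lay apart. Without that array and its counterpart in the elongation zone, the 1 h difference from 0 h was -0.59 ± 0.21 in the meristematic zone (limma adjusted p = 0.281) and -0.30 ± 0.21 in the elongation zone. No other gene had an unadjusted p under 0.05 in either zone.

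The H2O2 differences, averaged over 1, 3 and 6 h, describe the size of the effect by which the genes were picked. In the meristematic zone the mean log2 difference ran from 0.99 (AT5G64250 and AT2G46600) to 1.60 (AT3G26470), with a median of 1.21, beside 0.00 for all probe sets. In the elongation zone it ran from 0.54 (AT2G46600) to 1.74 (AT2G41380), with a median of 1.49, beside -0.03 for all. At the limma threshold 6 of the 8 were called in the meristematic zone, all but AT2G41380 and AT5G14730, where 0.211% of probe sets were called higher. All 8 were called in the elongation zone, where 0.426% were, and 5 were when the fit was limited to the arrays of that contrast. Fewer were called in each zone without the 1 h control arrays numbered 1, which lay apart. That fit has 1 control array per zone at 1 h. No share of all probe sets is given for it or for the limited fit. By single times, 0, 2 and 4 of the 8 were called at 1, 3 and 6 h in the meristematic zone (background 0%, 0.0308% and 0.123%). At 1 h in that zone an unadjusted limma p under 0.05 was found for 511 probe sets, 4 of the 8 genes among them. In the elongation zone 1, 4 and 0 were called (background 0.0264%, 0.119% and 0.0484%), and at 6 h all 8 had an unadjusted p under 0.05, as did 1782 probe sets. Nothing is read from these counts, since this contrast chose the genes.

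At a single time, both H2O2 arrays lay above both controls for 7, 8 and 8 of the 8 genes at 1, 3 and 6 h in the meristematic zone, beside 14.6%, 16.4% and 19.7% of probe sets. The counts for the elongation zone were 7, 7 and 8 genes, beside 12.1%, 12.5% and 20%. All 6 H2O2 arrays lay above all 6 controls of 1, 3 and 6 h for 3 genes in the meristematic zone (AT3G44190, AT5G64250 and AT2G41380; 0.167% of probe sets). In the elongation zone this held for 6 genes, all but AT5G61820 and AT2G46600 (0.303% of probe sets). The summed signal of the 4 meristem markers was 1167 to 1736 on control medium and 1004 to 1666 on H2O2 in the meristematic zone (6 arrays each). The same sum in elongating sections was 209 to 410.01 and 154 to 302. The sum of the 5 elongation and root hair markers was 3402 to 5716 and 2902 to 5527 in the elongation zone, and 179 to 267 and 164 to 293 in the meristematic zone. The median GAPDH ratio (log2) was 0.495 on control medium and 0.524 on H2O2 in the meristematic zone, and 0.0783 and 0.0426 in the elongation zone. No marker of either list was called for the mean H2O2 effect in either zone. In control meristems the mean signals of the elongation and root hair markers ran from 0.901 (XTH21) to 161 (EXPB1). In control elongating sections those of the meristem markers ran from 3.23 (BBM) to 172 (AUR1). The part of the markers and of the GAPDH ratio in the H2O2 differences was not tested.

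**Figure D3:**
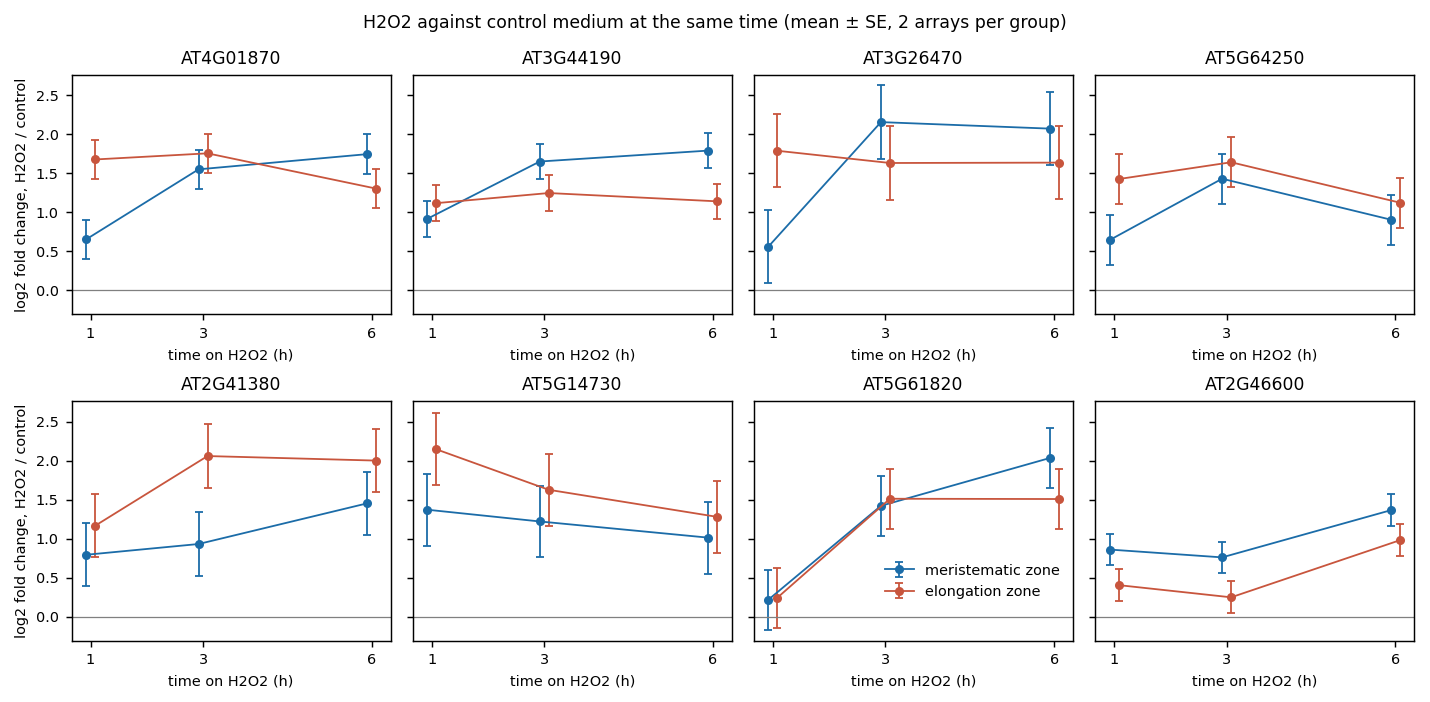
Log2 fold change of H2O2 over control medium at 1, 3 and 6 h for each gene and zone, as the fitted value ± SE with 2 arrays per group. At 1 h, 7 of the 8 genes have a lower value in the meristematic (blue) than in the elongation zone (red), AT2G46600 being the exception, and AT5G61820 is near 0 in both. Without the 1 h control arrays numbered 1 this holds for 5 of the 8.

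Without the 1 h control arrays numbered 1, where 1 control array per zone stands for 1 h and is taken to vary like the other groups, the median 1 h difference of the 8 genes went from 0.72 to 0.58 in the meristematic zone and from 1.29 to 0.86 in the elongation zone. AT3G26470 moved most, from 1.79 to 0.91 in the elongation zone, where its omitted array read 3.31. AT2G41380 went from 1.16 to 0.73 there. AT2G46600 went from 0.86 to 0.51 in the meristematic zone, and AT5G61820 from 0.22 to -0.09. AT4G01870 was at 0.56 and 1.65 in the meristematic and the elongation zone. Limma called none of the 8 genes at 1 h in the elongation zone then (1 of all probe sets, 4 of the 8 genes and 1695 of all at an unadjusted p under 0.05), against 1 with all arrays.

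The effect at 1, 3 and 6 h was also followed within each zone, on the same arrays by which the genes were chosen. Its changes with time are therefore not independent of that choice. The median log2 difference of the 8 genes was 0.72, 1.43 and 1.60 at 1, 3 and 6 h in the meristematic zone, and 1.29, 1.63 and 1.29 in the elongation zone. From 1 h to 6 h the fitted effect in the meristematic zone had a positive change for 7 of the 8 genes, with the highest values for AT5G61820 (1.82 ± 0.54), AT3G26470 (1.51 ± 0.66) and AT4G01870 (1.09 ± 0.36). AT5G14730 had a lower value at 6 h (-0.36 ± 0.65). None of these changes passed limma's adjusted p over all probe sets, where 0.0044% did, and 4 of the 8 genes and 1072 of all probe sets had an unadjusted p under 0.05. In the elongation zone the change was positive for 4 genes and negative for 4. AT5G61820 (1.26 ± 0.54) and AT5G14730 (-0.87 ± 0.65) stood at its ends. Again none passed, beside 0.0132% of probe sets, and 1 of the 8 genes (AT5G61820) and 1539 of all probe sets had an unadjusted p under 0.05. Without the 1 h control arrays numbered 1, none of the 8 genes passed in either zone (7 and 11 of all probe sets did), and the median change went from 0.77 to 0.90 in the meristematic zone and from -0.06 to 0.51 in the elongation zone. AT3G26470 then turned from -0.15 to 0.72 in the elongation zone.

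A difference between the zones in the H2O2 effect was not detected for any of the 8 genes. The H2O2 effects of the zones entered the choice of the genes, so this comparison is not independent of that choice. For the mean over the times, limma called 0 of 22746 probe sets (0%), and 971 had an unadjusted p under 0.05. The one gene among these was AT2G46600, whose effect was lower in the elongation zone by the fitted value (-0.45 ± 0.17, 95% interval -0.80 to -0.10, unadjusted p = 0.0135, adjusted p = 1 by limma). The size for AT2G46600 depended on the pseudocount, with -0.18 ± 0.13 for 64 and -0.59 ± 0.19 for 4. AT2G41380 had the highest value in the other direction (0.68 ± 0.33, interval -0.01 to 1.37). At 1 h AT4G01870 differed by 1.03 ± 0.36 (interval 0.28 to 1.77, unadjusted p = 0.00975, adjusted p = 1 by limma), and 0 of all probe sets were called at 1 h, with 728 at an unadjusted p under 0.05. Without the 1 h control arrays numbered 1 it was 1.09 ± 0.45 (unadjusted p = 0.0263, adjusted p = 1 by limma), while that of AT3G26470 went from 1.23 to 0.31. The intervals of the other 7 genes for the mean included 0, and that of AT3G26470 reached from -0.71 to 0.89. These intervals leave room for differences of over 0.5 on the log2 scale in at least one direction for every gene, so they do not show that the zones responded alike.

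Across the 28 arrays, the 8 genes were compared with each zone's mean taken off. The 28 pairs of genes had correlations of 0.453 to 0.956, with a median of 0.771, on arrays that share their media and times, so that the H2O2 difference by which the genes were chosen is part of these values. Over the 16 control arrays alone the median was 0.436 and the range -0.0955 to 0.783, with 23 of 28 pairs above 0. Over all arrays AT4G01870 and AT3G44190 were the most alike (0.956), and AT5G64250 and AT2G46600 the least (0.453). With the group means taken off as well, which leaves only differences between replicates, the median was 0.575 and the range -0.11 to 0.87. AT5G64250 and AT5G14730 then gave the highest value (0.87). AT2G41380 and AT2G46600 had low values with the other 6 genes in that measure, at most 0.211. Replicate 2 was the brighter array in 13 of the 14 groups for AT5G64250 and AT5G14730, in 12 for AT5G61820, in 11 for AT4G01870 and in 10 for AT3G44190 and AT3G26470. It was brighter in 7 groups for AT2G46600 and in 6 for AT2G41380. Of all probe sets, 4.77% had replicate 2 brighter in at least 12 groups and 2.01% in at least 13. The labels do not say that a replicate number marks a shared day or batch, and its part in the likeness of these genes was not tested.

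**Figure D4:**
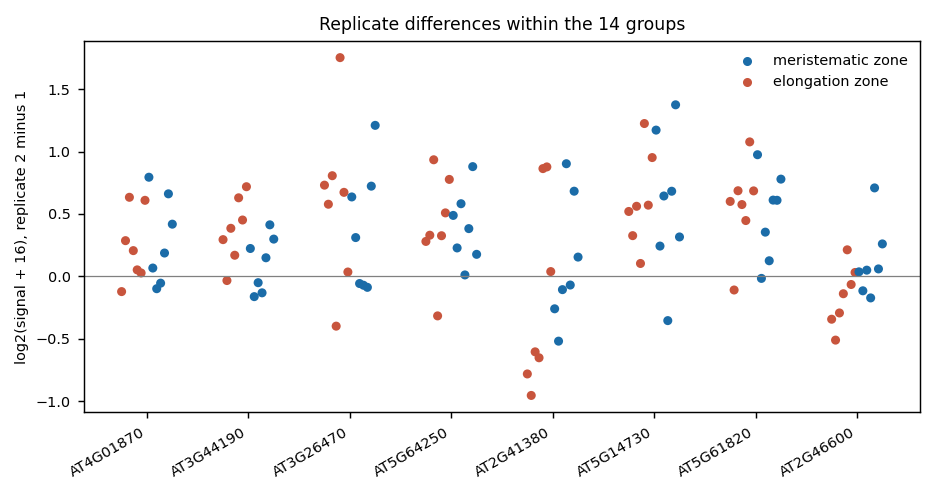
Replicate 2 minus replicate 1, as log2(signal + 16), in each of the 14 groups for the 8 genes, in blue for the meristematic and red for the elongation zone. The points of AT5G64250 and AT5G14730 lie above 0 in 13 of 14 groups, while those of AT2G41380 and AT2G46600 lie on both sides.

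The loci outside the 8 genes whose arrays were most like their mean, over 28 arrays with each zone's mean taken off, were the glucosyltransferase genes UGT73B5 (r = 0.942) and UGT73B4 (r = 0.911), AT4G24160 (r = 0.919), AT4G19880 (r = 0.914), AT5G10830 (r = 0.897) and AT2G39110 (r = 0.882). Their mean log2 differences between H2O2 and control medium were 0.63 to 1.01 in the meristematic zone and 0.49 to 1.14 in the elongation zone. Such differences follow in part from the search, which used the same H2O2 and control arrays and genes picked on them. AT4G19880 and AT2G39110 were not among the loci called higher on H2O2. UGT73B5 had 1.01 ± 0.18 and 1.14 ± 0.18.

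Genes of related processes were read from lists of known loci, which were drawn up with earlier results of these arrays known and are no independent evidence. Genes are named by brightness or because they were called. Of 22 listed detoxification and xenobiotic response genes 7 were measured. For the mean H2O2 effect 2 of them were called higher in the meristematic zone (UGT73B4 and UGT73B5) and 4 in the elongation zone (GSTU25, UGT73B4, UGT73B5 and GRX480), none lower, with medians of 0.50 and 0.71, where 0.211% and 0.426% of all probe sets were called higher. GSTU25, a glutathione transferase, was at 0.39 ± 0.19 in the meristematic zone and 1.45 ± 0.19 in the elongation zone, a difference that did not pass (adjusted p = 0.562 by limma). GSTU22 was at 0.67 ± 0.21 and 0.71 ± 0.21, not called, and the glutaredoxin gene GRX480 at 0.50 ± 0.15 and 0.69 ± 0.15. None of the 5 measured of 11 mitochondrial stress genes was called in either zone, with medians of 0.09 and 0.04. The NAD(P)H dehydrogenase gene NDB2 was at 0.39 ± 0.12 and 0.15 ± 0.12, AT12CYS-2 (AT5G09570) at 0.03 ± 0.16 and -0.08 ± 0.16, and UPOX (AT2G21640) at 0.09 ± 0.16 and -0.25 ± 0.16.

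None of the 4 measured of 8 listed EF-hand sensors and partners of calcium signalling was called on H2O2, and AT2G46600, an EF-hand gene itself, was picked for its difference. The calcium sensor gene CMI1 (AT4G27280) was at 0.23 ± 0.30 in the meristematic zone and -0.07 ± 0.30 in the elongation zone, CML39 at 0.28 ± 0.15 and -0.20 ± 0.15, and CML38 at 0.30 ± 0.20 and 0.42 ± 0.20. In control roots CMI1 was higher in the elongation zone by 1.32 ± 0.26 and CML39 by 1.69 ± 0.13 (limma adjusted p of 0.000146 and 3.71e-10), 2 of the 4 measured. Of 12 loci of RPW8-type immunity only SAG101 was measured, at 0.02 ± 0.17 and 0.19 ± 0.17 on H2O2. Of 12 antioxidant enzymes the glutathione reductases GR1 (0.15 ± 0.10 and 0.17 ± 0.10) and GR2 (0.13 ± 0.09 and -0.14 ± 0.09) were measured, and neither was called on H2O2.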

How the data were processed

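The deposited table holds 1 linear intensity per probe set and array. Both MAS5 and GCRMA stand in the submitters' processing notes, with no word on which was used for this table. The mean of each array, with 2% trimmed at both ends, is 250, so the authors' values had been scaled per array. The intensities were taken as log2(signal + 16), 64 control probe sets were left out of 22810, and 22746 were fitted with limma 3.58.1 in R 4.3.3 (1 mean per group, 14 residual degrees of freedom, intensity trend, Benjamini-Hochberg adjustment, calls at an adjusted p under 0.05). Fold changes on this scale understate the change of dim genes. Probe sets were paired with loci through the platform annotation, which paired 13436 of them with 1 locus, and the brightest probe set stood for a locus with several. Names came from RefSeq (TAIR10.1).

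The 8 genes, the gene lists and the markers were chosen with earlier results of these data known. The text names the 8 genes, the 6 loci most like them, and up to 3 bright genes per list plus any called for the mean H2O2 effect. On simulated intensities, in which 200 probe sets were changed by 1 on the log2 scale, the fit recovered 94% for the zone on control medium, 87% and 85.5% for the mean H2O2 effect in the meristematic and elongation zones, and 54% for the zone difference of that effect. Alternatives were other pseudocounts (4 and 64), quantile normalisation, median centring, no intensity trend, a mean signal of at least 50, fits of only the arrays compared, a replicate block, and leaving out each array. Added after the data were seen were fits without the 1 h arrays or the 1 h controls of 1 number, and the zone differences on H2O2, which are described only. The number of arrays limits the precision. Replicate numbers were not taken as pairs, since the labels name no shared day or batch.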

Additional observations from a re-analysis of the deposited data

How the results depend on the processing

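No direction of a called result turned under any alternative. The zone counts on control medium and at 0 h (4 genes each) lay between 4 and 5 and at 3 with 1 array left out, and median centring raised the first to 7. The time call of AT2G46600 in the meristematic zone (1 gene) ranged from 0 to 1 with 1 array left out, and it was 0 with a pseudocount of 64, with only the arrays compared and without the 1 h control arrays numbered 1. The cause was not tested. Over all probe sets, a replicate block raised the calls over time on control medium from 83 to 234 in the meristematic and from 96 to 415 in the elongation zone, and fitting without the intensity trend gave 54 in the former. For the mean H2O2 effect the count of the 8 genes ranged from 4 to 7 in the meristematic zone and from 6 to 8 in the elongation zone with 1 array left out, and it was 5 in the latter with only the arrays compared, a fit with fewer arrays. The zone difference of the effect and its change from 1 h to 6 h gave 0 of the 8 genes in each alternative, and 0 to 2 of all probe sets for the zone difference. For the change from 1 h to 6 h, all probe sets gave 1 to 3 in the meristematic and 0 to 6 in the elongation zone under the settings that keep all arrays, and 7 and 11 without the 1 h control arrays numbered 1. The replicate block gave 5 genes for the zone on control medium (AT5G14730 added, 0.39 ± 0.15, adjusted p = 0.0251 by limma), 4 at 0 h, and 7 and 8 for the mean H2O2 effect in the meristematic and elongation zones. Its calls over all probe sets went from 59 to 111 and from 115 to 209 for that effect. The differences between replicates 1 and 2 correlated between groups at -0.11 to 0.438 (median 0.0992, 91 pairs of groups, 45 above 0.1), a hint from the data and not from the design. AT3G26470 at 0 h was not called with a pseudocount of 64 (adjusted p = 0.14) or after quantile normalisation (adjusted p = 0.0537). AT2G41380 was not in the fit with a mean signal of at least 50. Without all 1 h arrays, the mean effect in the meristematic zone was 1.65 for AT4G01870, 1.72 for AT3G44190 and 1.73 for AT5G61820. With 4 added it was 2.16 for AT3G26470, and with 64 added 0.68 for AT2G46600. Dim signals limit AT2G41380 and AT3G26470.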
